A study of Mus musculus with 4 samples.

Results

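Type I interferon stimulated genes were followed across single monocytes and macrophages of the mouse colon. The set held 46 genes listed by name, of which 45 had a row among the 28692 genes of the count table. The remaining gene, Mx2, was not analysed here. Levels were read from 4771 of 6954 barcodes, those with at least 1000 unique molecular identifiers (UMIs, tags that mark single RNA molecules). The cells came from 4 male C57/Bl6N mice, labelled PBS 2, PBS 3, DEP 11 and DEP 13. The DEP mice had been gavaged with 12 µg of diesel exhaust particles in 200 µL of phosphate-buffered saline (PBS), 5 days per week over roughly 6 months, and the control mice had received PBS alone. Their age was not given in the labels. From each colon, lamina propria cells that carried CD11b together with Ly6C or CD64 were sorted and loaded in a well of their own for 3′ sequencing. All groups therefore hold only cells that this gate lets through, and each library is 1 mouse.

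Type I interferons are cytokines released when a cell senses viral or bacterial nucleic acids. They bind the receptor formed by Ifnar1 and Ifnar2, which signals through the kinases Jak1 and Tyk2. The complex ISGF3, to which Stat2 and Irf9 belong, then binds an element known as the interferon-stimulated response element (ISRE) and turns on a large antiviral program. In the gut, monocytes that arrive from blood express Ly6c2 and lose it as they mature into resident macrophages, which express the complement gene C1qa.

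The promoter windows of several members carried the ISRE letters, and the stretches below are shown because they hold the element that defines the program. The windows came from RefSeq (GRCm38.p6) and spanned 250 bases before to 50 after each start. A window was found for 36 of the 45 members. The ISRE was searched as GAAA, any 2 bases and GAAA on both strands, with overlapping matches counted, and stood in 19 of these 36 members (52.8%), against 3.99% of the 27025 genes with a window. Of the 10 members with a window that also belong to the core list described further on, 6 held it, all before the start. The gamma-activated sequence (GAS, searched as TTC, any 3 bases and GAA) stood in 7 of 36 members (19.4%) and 9.55% of all genes, and shared bases with an ISRE match in 2 members, Bst2 and Ifitm3. Each stretch reads 5′ to 3′ along its gene, lies before the start, and has the ISRE matches in capitals, which read TTTC, any 2 bases and TTTC where the match is on the other strand.
Isg15 (chr4:156200840-156200931, minus strand): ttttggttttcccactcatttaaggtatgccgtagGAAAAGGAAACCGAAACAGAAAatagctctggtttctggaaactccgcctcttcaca
Ifit1 (chr19:34640750-34640848, plus strand): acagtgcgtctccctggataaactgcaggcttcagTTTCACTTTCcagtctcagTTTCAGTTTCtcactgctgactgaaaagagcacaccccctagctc
Ifit3 (chr19:34583338-34583451, plus strand): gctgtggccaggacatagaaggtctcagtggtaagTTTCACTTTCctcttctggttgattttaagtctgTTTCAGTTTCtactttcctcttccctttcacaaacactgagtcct
Ifit3b (chr19:34607734-34607847, plus strand): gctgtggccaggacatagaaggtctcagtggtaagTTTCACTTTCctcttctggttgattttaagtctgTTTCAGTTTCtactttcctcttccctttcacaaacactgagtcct
Rsad2 (chr12:26456528-26456607, minus strand): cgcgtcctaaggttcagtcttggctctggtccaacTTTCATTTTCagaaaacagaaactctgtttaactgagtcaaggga
Oas3 (chr5:120777690-120777769, minus strand): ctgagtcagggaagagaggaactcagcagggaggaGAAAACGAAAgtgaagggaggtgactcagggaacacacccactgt
Bst2 (chr8:71537552-71537637, minus strand): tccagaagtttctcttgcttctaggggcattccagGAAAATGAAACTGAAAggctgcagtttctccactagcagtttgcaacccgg
Isg15 held 3 overlapping matches. The stretches of Ifit3 and Ifit3b were identical in all 114 bases, and these neighbouring genes are near copies, so their UMIs may be split between them. The same caution holds for Phf11b and Phf11d, for Ifi203, Ifi204 and Ifi205, and for Slfn8 and Oas1a, which have close relatives outside the set.

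Library totals ranged from 4489342 UMIs in DEP 13 to 10293703 in PBS 2, and the 4 mice gave between 675 and 1582 barcodes with at least 1000 UMIs, at median depths of 5328.5 to 7115.5 UMIs. The barcode strings of the table run through the letters in unbroken order and are therefore codes rather than sequenced barcodes. Of 6915 distinct strings, 36 were used by more than 1 mouse. The sort genes (Itgam, Fcgr1, Ly6c2) had a UMI in 84.3% of barcodes and all 8 macrophage markers were detected. Barcodes with T cell, B cell, plasma cell or epithelial markers made up 5.93% (4.02% to 7.70% per mouse). Plasma cell genes (Jchain, Mzb1, Igha, Igkc) summed to 24077 UMIs per 1000000 UMIs (CPM) in DEP 11 and 42224 in DEP 13, against 13046 in PBS 2 and 41329 in PBS 3. CPM values are a gene's share of the UMIs summed over a mouse's barcodes. The 3′ chemistry counts 1 tag per molecule, so levels were not divided by gene length. In such sums, fewer cells that express a gene and less RNA per cell cannot be told apart.

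Most of the interferon signal came from a pair of small membrane proteins. Ifitm3, which blocks viral entry at membranes, stood at 1674 CPM in DEP 11 and 1431 in DEP 13, against 1761 in PBS 2 and 1604 in PBS 3. Ifi27l2a, an interferon-inducible protein, had 966 and 880 CPM in the DEP mice against 1370 and 903 CPM in the PBS mice. Together the 45 members summed to 4645 ± 588 CPM (SD, n = 4), of which the other 43 members gave 1997 ± 251 CPM. Ifitm3 had a UMI in 93.2% of barcodes and Ifi27l2a in 90.0%. After each barcode was thinned to 1000 UMIs, a UMI of Ifitm3 was left in 48.1% of the barcodes that carried markers of other cell types, so such shares were not read as shares of expressing cells. In those barcodes Ifitm3 averaged 807 ± 119 CPM and Isg15 53.6 ± 27.1 CPM.

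The next members by level were membrane proteins and DNA sensors. Ms4a4c, a tetraspan membrane protein, stood at 337 and 266 CPM in the DEP mice (11, 13) and at 337 and 281 CPM in the PBS mice (2, 3), and the order is kept below. Bst2 (tetherin), which holds budding virus at the cell surface, had 269, 235, 267 and 220 CPM. The 3 neighbouring genes of the PYHIN family on chromosome 1, which encode sensors of DNA, had lower levels. Ifi204 stood at 159, 149, 174 and 140 CPM, Ifi205 at 111, 103, 105 and 81.0 CPM, and Ifi203 at 88.7, 83.5, 84.1 and 94.6 CPM. The DEP and PBS mice overlapped in all 5 of these genes.

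Isg15, a ubiquitin-like protein attached to other proteins, stood at 99.3, 73.4, 132 and 101 CPM. Lgals3bp, a secreted glycoprotein, had 92.7, 72.5, 94.9 and 67.7 CPM and Oas1a, which makes the second messenger that activates RNase L, had 81.5, 66.8, 108 and 67.3 CPM. Trim30a, a regulator of NF-κB signalling, was level across the mice, with 69.6, 68.6, 71.8 and 61.0 CPM, and Sp100, a nuclear body protein, had 75.9, 62.0, 73.5 and 57.0 CPM. The remaining members fell from 63.6 ± 6.92 CPM for Ifi35 to 0.860 ± 0.588 CPM for Ifi44 (SD, n = 4). At the low end stood several genes that are usually taken as strict interferon reporters: Ifit3 at 20.3 ± 10.4 CPM, Rsad2 (viperin) at 16.9 ± 7.16, Ifit1 at 11.5 ± 3.98, Mx1 at 9.02 ± 3.86, Oas3 at 4.01 ± 1.56 and Cmpk2 at 2.51 ± 0.898. Isg15, which shares the core list with them, stood higher (above). Ordered by mean level, neighbours from Isg15 to Sp100 differed by less than the larger of their SDs. DEP 13 was the lowest mouse for 29 of 45 members and PBS 3 for 12, while PBS 2 was the highest for 31 and DEP 11 for 12. Over the 6887 genes tested between the classes described further on, DEP 13 was lowest for 31.9%, PBS 3 lowest for 34.4%, PBS 2 highest for 36.8% and DEP 11 highest for 26.2%.

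**Figure D1:**
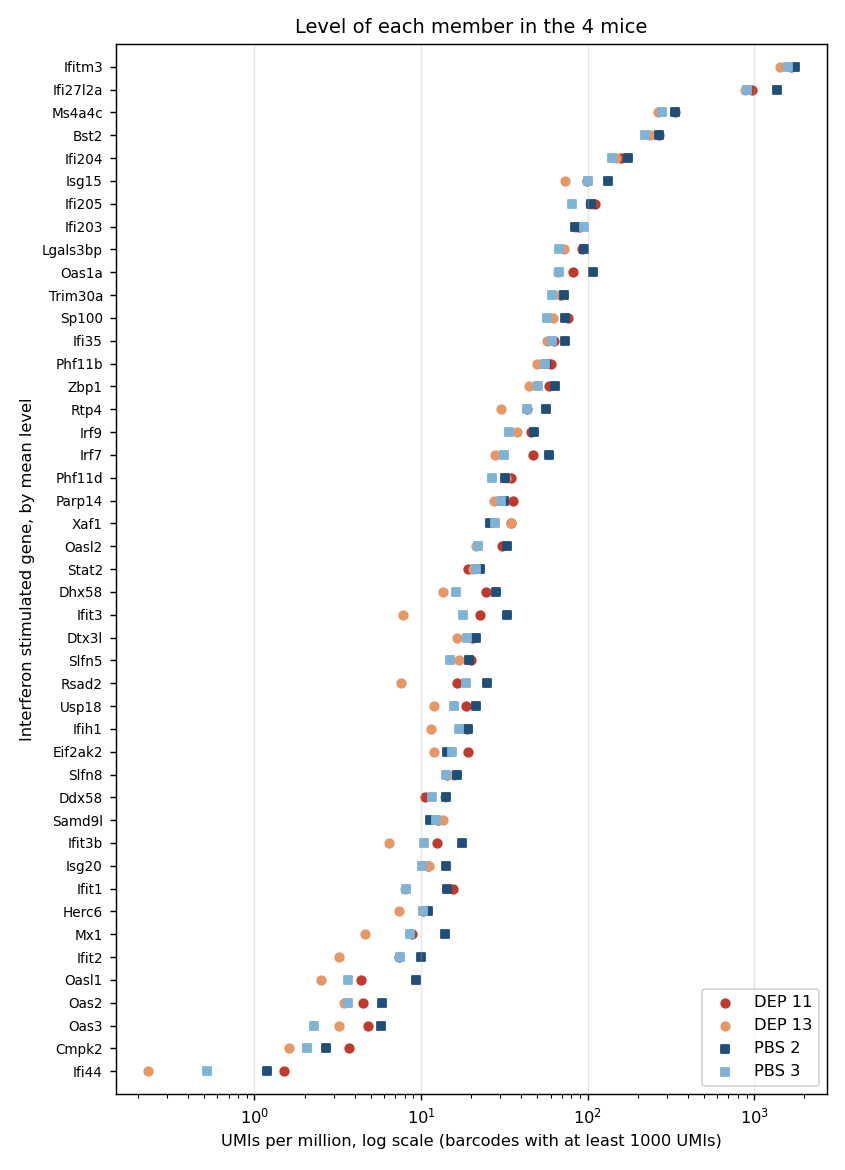
Level of each of the 45 members in CPM (log scale) in each mouse, over barcodes with at least 1000 UMIs; circles are DEP mice and squares PBS mice. Ifitm3 and Ifi27l2a stand apart at the top, and DEP 13 lies lowest for 29 members.

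The clearest difference within these cells ran along maturation. Barcodes were called Ly6c2-high (882 barcodes) or C1qa-high (2221 barcodes) when 1 of the genes was at or above its median level among barcodes that had it (2.58 UMIs per 10000 for Ly6c2, 34.8 for C1qa) and the other was below. A further 106 were high for both and 1562 for neither. Neither gene is a member. Within 20% of a limit lay 288 barcodes for Ly6c2 and 473 for C1qa. Monocyte markers summed to 5435 to 6586 CPM in the Ly6c2-high class and 507 to 790 CPM in the C1qa-high class, so the classes followed their names. However, plasma cells also express Ly6c2, and plasma cell genes summed to 23851 to 107783 CPM in the Ly6c2-high class against 3494 to 8946 CPM in the C1qa-high class. Other cell types were 6.24% of Ly6c2-high and 3.83% of C1qa-high barcodes, and the counts of members and pathway genes that passed are also given without them.

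Summed over all members, the Ly6c2-high class held 9656 ± 999 CPM and the C1qa-high class 2860 ± 454 CPM (SD, n = 4). Much of this gap came from Ifitm3 and Ifi27l2a. The other 43 members summed to 3390 ± 544 CPM against 1564 ± 166 CPM. In edgeR's quasi-likelihood test with the mouse as a block, 34 of the 38 members tested passed an adjusted p of 0.05, 33 higher and 1 lower in the Ly6c2-high class. Of all 6887 genes tested, 38.7% passed, 19.4% as higher and 19.2% as lower. The median log2 fold change was 1.18 over the tested members and −0.02 over all genes tested. Of the tested members, 4 (Ifit3b, Isg20, Mx1, Samd9l) had a UMI in too few C1qa-high barcodes to pass the filter in that class alone, and without them 30 of 34 passed. The 7 untested members (Ifit1, Ifit2, Oasl1, Oas2, Oas3, Cmpk2, Ifi44) had a UMI in 0.566% to 3.50% of barcodes. Without any gene filter 40 of 45 members passed, against 20.9% of all genes. The level was higher in Ly6c2-high barcodes in 4 of 4 mice for 38 of 45 members and lower in 4 of 4 for 2, against 21.5% and 27.9% of the genes tested. Without the interferon-rich barcodes described further on, left out of both classes in a comparison chosen after the data were seen, it was higher in 4 of 4 mice for 24 of the 31 tested members that did not choose those barcodes (21.3% of the genes tested), against 25 of 31 with them.

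All 3 transcription factors rose. Irf7, which amplifies interferon production, stood in the Ly6c2-high class at 118 and 108 CPM in the DEP mice, against 165 and 80.8 CPM in the PBS mice, and in the C1qa-high class at 21.6, 12.8, 28.5 and 19.3 CPM. Every mouse lay higher in the Ly6c2-high class, and the classes did not overlap. The log2 fold change was 2.49 ± 0.12 (SE; adjusted p = 5.24e-12). The ISGF3 subunits Stat2 (1.17 ± 0.16) and Irf9 (0.77 ± 0.11) rose less.

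Among antiviral effectors 4 of 5 tested members rose, or 2 of 3 without Isg20 and Mx1, which passed the gene filter only through the Ly6c2-high class. Ifitm3 had 4237, 4342, 4534 and 4226 CPM in the Ly6c2-high class (DEP 11, DEP 13, PBS 2, PBS 3) and 542, 543, 828 and 663 CPM in the C1qa-high class, the widest separation of the set (log2 fold change 2.80 ± 0.07, adjusted p = 2.46e-15). Isg20, an exonuclease that degrades viral RNA, had 27.5, 25.2, 32.04 and 21.8 CPM against 4.97, 7.81, 8.20 and 7.15 CPM (1.96 ± 0.19, adjusted p = 1.27e-07). Mx1, a dynamin-like GTPase that is truncated in most laboratory strains, had 23.3, 16.2, 27.2 and 21.8 CPM against 5.71, 2.47, 10.0 and 5.56 CPM (1.84 ± 0.21, adjusted p = 1.23e-06). For each of these genes the lowest Ly6c2-high mouse lay above the highest C1qa-high mouse. Bst2 went the other way without passing the test, with 223 to 263 CPM against 241 to 301 CPM and a log2 fold change of −0.13 ± 0.07 (adjusted p = 0.123). Without the other cell types, in which Bst2 averaged 344 CPM, the change was −0.40 ± 0.07 (adjusted p = 0.000166), so Bst2 was then a further member that fell. With a fixed class limit of 10 UMIs per 10000 the direction turned, to 0.37 ± 0.13 (adjusted p = 0.0565). Without the other cell types 36 of 38 members passed, 34 higher and 2 lower, against 39.1% of all genes. The promoter window of Bst2 carries 2 overlapping ISRE matches (above).

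Sensors rose in 7 of 8 cases. Ifi205 had 252, 253, 285 and 170 CPM in the Ly6c2-high class and 59.3, 61.7, 52.5 and 47.1 CPM in the C1qa-high class, without overlap (2.16 ± 0.08, adjusted p = 2.84e-13). Its neighbours Ifi204 (1.14 ± 0.07) and Ifi203 (1.11 ± 0.10) rose less. Zbp1, which senses Z-form nucleic acid, rose by 1.57 ± 0.10 and the RNA helicase Ddx58 (RIG-I) by 1.30 ± 0.20. The related helicase Ifih1 (MDA5) did not pass the test (0.19 ± 0.19, adjusted p = 0.483).

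In the ISG15 system, Isg15 (1.35 ± 0.07) and Usp18 (1.47 ± 0.16), the protease that removes Isg15 and dampens the receptor, rose. The ligase Herc6 lay at the threshold (0.69 ± 0.27, adjusted p = 0.0501) and passed without the other cell types (0.76 ± 0.28, adjusted p = 0.0403). Of the IFIT proteins, which bind viral RNA, Ifit3 (1.19 ± 0.15) and Ifit3b (1.27 ± 0.18) rose. Without Ifit3b, which passed the gene filter only through the Ly6c2-high class, Ifit3 was the 1 IFIT gene tested. The 4 IFIT genes, which belong to the core, summed to 109 ± 48.1 CPM in the Ly6c2-high and 43.8 ± 19.4 CPM in the C1qa-high class. Core UMIs chose the interferon-rich barcodes, so leaving these out lowers the sums by construction. Without them in either class the sums were 33.7 ± 10.8 and 23.6 ± 6.01 CPM (SD, n = 4), higher in the Ly6c2-high class in 3 mice and lower in PBS 3, at 21.9 against 26.7 CPM. Ifit1 was not tested and had 27.0 CPM in Ly6c2-high and 9.14 CPM in C1qa-high barcodes. Oasl2 (1.29 ± 0.14) and Oas1a (0.70 ± 0.10) rose in the OAS family. Parp14 rose by 0.77 ± 0.14, whereas Dtx3l, a ubiquitin ligase, did not pass (0.16 ± 0.18, adjusted p = 0.511).

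Of the 13 other members tested, 12 rose, or 11 of 12 without Samd9l, which passed the gene filter only through the Ly6c2-high class. Ms4a4c had 730, 681, 742 and 555 CPM in the Ly6c2-high class and 142, 122, 172 and 124 CPM in the C1qa-high class (2.30 ± 0.07, adjusted p = 1.22e-14). Samd9l, a growth and antiviral restriction factor, had 24.2, 43.1, 20.6 and 24.03 CPM against 4.97, 5.35, 6.89 and 6.16 CPM (2.11 ± 0.22, adjusted p = 3.69e-07), and Slfn5, a Schlafen family protein, had 52.5, 50.3, 35.1 and 21.8 CPM against 8.94, 7.81, 13.3 and 10.9 CPM (1.82 ± 0.22, adjusted p = 2.09e-06). None of these groups overlapped. Lgals3bp was the member that fell, with 57.5, 48.5, 73.8 and 46.6 CPM in the Ly6c2-high class and 119, 91.3, 110 and 91.0 CPM in the C1qa-high class, lower in 4 of 4 mice (−0.81 ± 0.10, adjusted p = 2.31e-06).

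**Figure D2:**
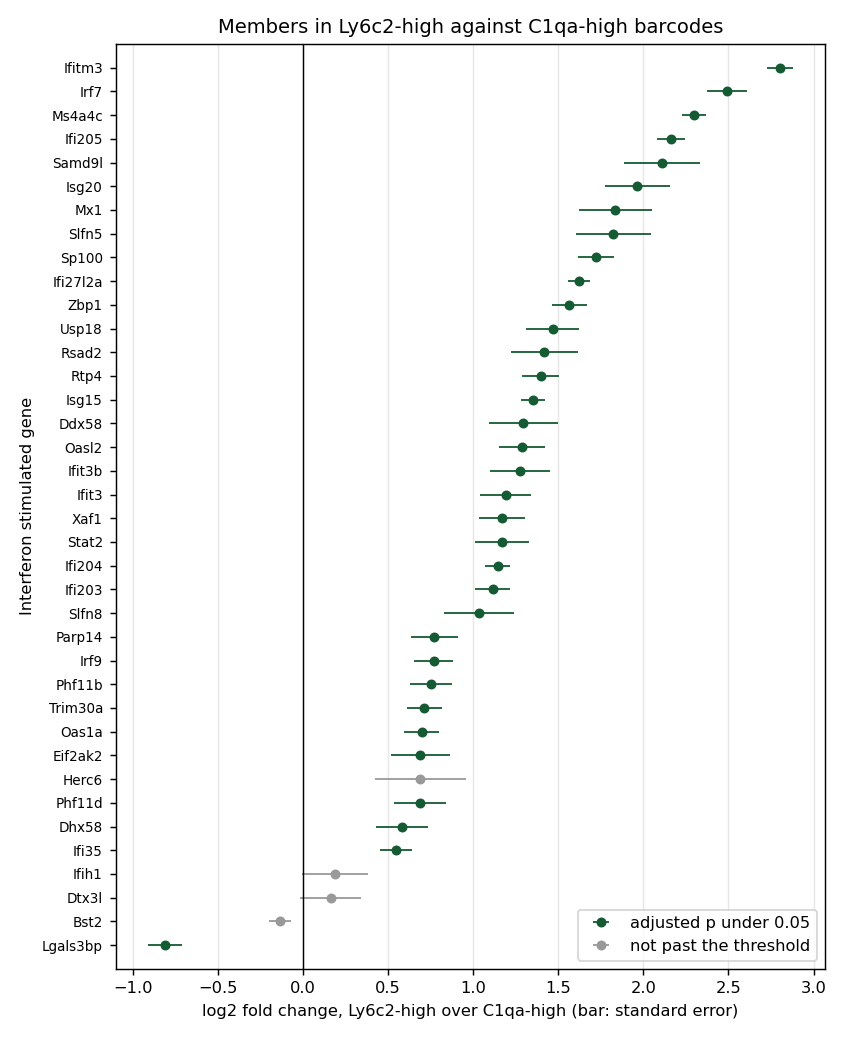
Log2 fold change of the 38 tested members in Ly6c2-high over C1qa-high barcodes, with the standard error of edgeR's fit as a bar; green points passed an adjusted p of 0.05. Members run from Ifitm3 (2.80) to Lgals3bp (−0.81), and 33 lie past the threshold to the right of 0.

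Barcodes that were high for neither gene lay between the classes for 35 of 45 members, as they did for 57.3% of the 6887 genes tested. Ifitm3 had 2181 ± 309 CPM there and Irf7 43.4 ± 20.6 CPM (SD, n = 4). Members with the ISRE letters in their window did not stand apart by class: their median log2 fold change was 1.17 over 17 tested members, and 1.17 over 13 members whose window lacked the letters. Barcodes under 500 UMIs, whose content was not tested, carried members too, at a summed 3675 ± 562 CPM. In 25 of 45 members the level there was above that in barcodes of at least 1000 UMIs, for instance 142 against 101 CPM for Isg15, so a single UMI of a member in a barcode was not read as expression.

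Genes of a wider interferon list, which also holds type II interferon genes, passed in both directions. Of 34 tested genes of the interferon pathway outside the set, 16 passed, 9 higher and 7 lower in the Ly6c2-high class, which is near the share of all genes (38.7%, with 19.4% higher and 19.2% lower). Without the other cell types 18 passed, 11 higher and 7 lower, against 39.1% of all genes. Receptor chains were Ifnar1 (−0.22 ± 0.09, adjusted p = 0.0679) and Ifnar2, which fell (−0.37 ± 0.07, adjusted p = 0.000473). The kinases did not pass, with 0.08 ± 0.10 for Jak1 and −0.05 ± 0.23 for Tyk2. The interferon regulatory factors Irf2 (0.81 ± 0.09) and Irf5 (0.73 ± 0.07) rose, while Irf8 fell (−0.64 ± 0.07). The inhibitory phosphatases Ptpn1 (0.67 ± 0.09) and Ptpn6 (0.40 ± 0.06) rose and the inhibitor Socs3 fell (−0.47 ± 0.10). Socs1 was too rare to test. Among genes known for type II interferon, those that passed went in both directions, and the others on the list did not pass or were too rare to test. Cxcl9 (−0.84 ± 0.19), Gbp7 (−0.63 ± 0.15), the antigen presentation regulator Ciita (−0.49 ± 0.11) and Gbp3 (−0.42 ± 0.09) fell, and Irgm1 (0.91 ± 0.22), Gbp2 (0.60 ± 0.16), Tap1 (0.50 ± 0.10), the receptor chain Ifngr1 (0.43 ± 0.06) and the immunoproteasome gene Psmb8 (0.24 ± 0.06) rose. Without barcodes of under 2000 UMIs Cxcl9 did not pass (−0.35 ± 0.28, adjusted p = 0.347). No UMI of the ligand genes Ifnb1, Ifna2, Ifna4 or Ifna5 was found in Ly6c2-high barcodes.

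Core interferon UMIs were concentrated in few barcodes. A core of 12 members (Ifit1, Ifit2, Ifit3, Ifit3b, Isg15, Rsad2, Cmpk2, Usp18, Oasl1, Mx1, Oas3, Irf7) was counted after each barcode had been thinned at random to 1000 UMIs. No core UMI was left in 82.7% of barcodes, and the top 5% of barcodes held 60.0% of all core UMIs. At least 3 core UMIs were found in 93 of 4771 barcodes (1.95%, 95% exact binomial interval 1.58 to 2.38%), here called interferon-rich. Among the DEP mice they made up 2.22% of barcodes in mouse 11 (1.47 to 3.21%) and 0.889% in mouse 13 (0.327 to 1.92%). Among the PBS mice they made up 2.70% in mouse 2 (1.89 to 3.74%) and 1.58% in mouse 3 (1.03 to 2.32%). The group means were 1.55% in DEP and 2.14% in PBS mice, a difference of −0.59 percentage points that was smaller than the spread between mice of a group (0.869 points). Intervals cover counting error only. Without thinning, the same limit was met by 13.6% and 10.96% of barcodes in the DEP mice, against 23.1% and 12.3% in the PBS mice.

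**Figure D3:**
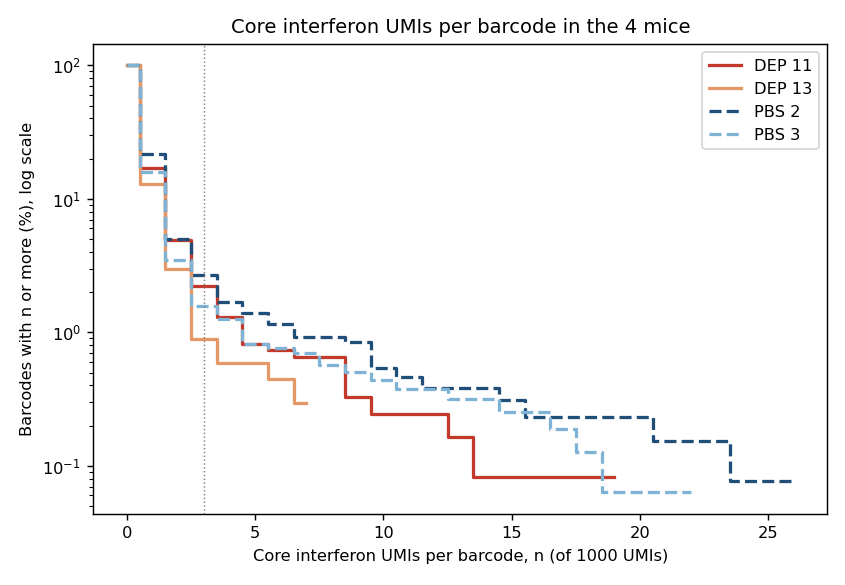
Share of barcodes (%, log scale) with n or more core interferon UMIs, after thinning to 1000 UMIs, for each mouse; solid lines are DEP mice, dashed lines PBS mice, and the dotted line marks 3 UMIs. All mice have a long tail, which ends at 7 UMIs in DEP 13 and at 26 in PBS 2.

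Interferon-rich barcodes were 6.01% of the Ly6c2-high class (3.88% to 7.08% per mouse), 1.28% of barcodes high for neither gene and 0.810% of the C1qa-high class (0.291% to 1.24%). The range of the Ly6c2-high class lay above that of the C1qa-high class, and 57.0% of interferon-rich barcodes were Ly6c2-high. They were not deeper, with a median of 4566 UMIs, and 1 of the 93 carried markers of another cell type. Markers of plasmacytoid dendritic cells, the best known makers of type I interferon, summed to 59.6 to 97.8 CPM in interferon-rich and 61.5 to 68.7 CPM in other barcodes.

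Within the Ly6c2-high class, the 53 interferon-rich barcodes (17 and 4 in the DEP mice, 18 and 14 in the PBS mice) were set beside the rest. Core members chose these barcodes, so their levels only describe the choice: Isg15 stood at 1897 ± 471 CPM against 107 CPM and Ifit1 at 442 ± 43.0 against 5.97 CPM (mean ± SD, n = 4 mice). Of the 33 members outside the core, 24 were higher in the interferon-rich barcodes in 4 of 4 mice and 0 were lower in 4 of 4. Of the 6887 genes tested between the classes, 4.68% were higher in 4 of 4 mice and 13% lower. The median ratio was 3.40 over the members outside the core and 0.967 over these genes. Since the same barcodes gave both lists, this is a description with no test.

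The non-core members differed widely in how far they followed. Phf11d had the largest ratio among those seen in every mouse, with 349 and 265 CPM in the DEP mice, against 317.1 and 252 CPM in the PBS mice, against 32.1, 24.2, 43.1 and 27.9 CPM in the remaining barcodes. Zbp1 had 476 ± 75.1 against 85.8 ± 23.7 CPM and Ifi205 1046 ± 246 against 199 ± 41.1 CPM. At the other end, Ifitm3 went only from 4178 ± 160 to 7546 ± 637 CPM. Irf9 had 99.4 ± 45.2 against 57.5 ± 16.8 CPM, on 20 UMIs in the interferon-rich barcodes, and was lower there in PBS 2 (51.2 against 77.8 CPM). Bst2 went from 232 ± 16.8 to 439 ± 123 CPM, higher in 4 of 4 mice. Lgals3bp had 99.3 ± 48.3 against 54.5 CPM, but its level in the interferon-rich barcodes rested on 27 UMIs, of which 1 was in DEP 13. Outside the set, the chemokine Cxcl10 had 814 ± 735 against 57.1 ± 26.4 CPM. C1qa stood at 911 ± 262 against 1011 ± 252 CPM.

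**Figure D4:**
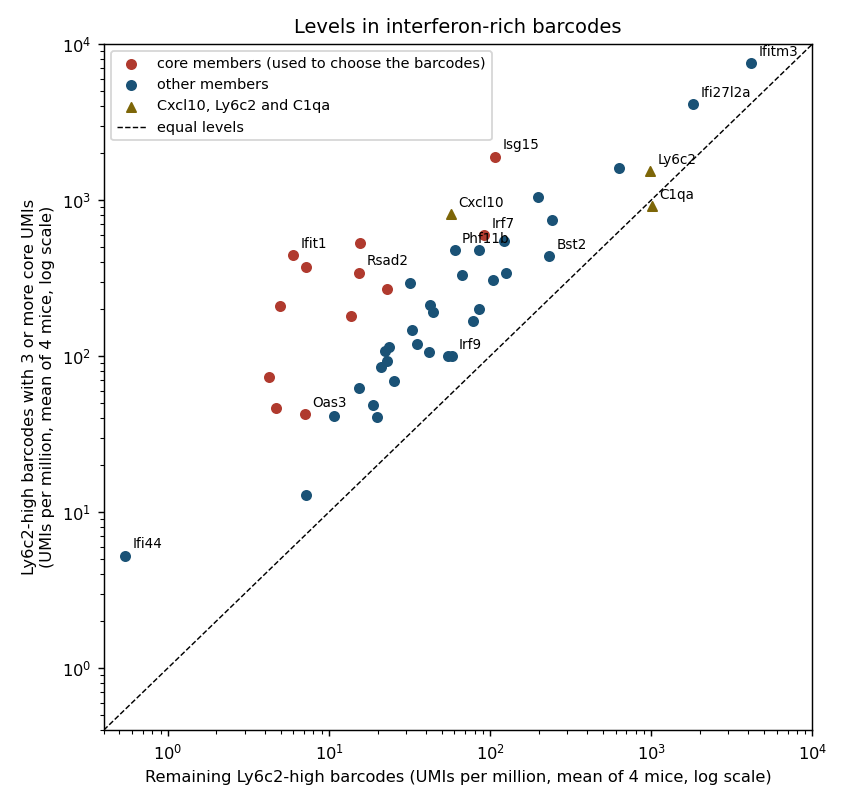
Mean level over 4 mice (CPM, log scales) in Ly6c2-high barcodes with 3 or more core UMIs against the remaining Ly6c2-high barcodes; red points are core members, which chose the barcodes, blue points other members, triangles 3 further genes and the dashed line equal levels. All 45 members lie above the line, and C1qa lies just under it.

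The comparison of DEP with PBS mice asked whether exposure altered these genes. With edgeR's quasi-likelihood test on all barcodes of a mouse, 0 of the 36 members tested passed an adjusted p of 0.05, as did 0% of the 6609 genes tested, with 2 members and 171 genes at an unadjusted p under 0.05. DESeq2 called 0 members and 4 genes. The members' median log2 fold change was −0.07 (all genes, −0.01), and 24 of 36 lay below 0, as did 3400 of the 6609 genes. After TMM scaling, which edgeR uses to even out library composition, both DEP mice lay below both PBS mice in 9 members (Dtx3l, Herc6, Ifi27l2a, Ifi35, Ifitm3, Isg15, Rsad2, Rtp4, Stat2), where 16.7% of all genes did so, and above them in 3 (Ifi205, Phf11d, Xaf1), where 11.7% did. In the plain CPM values printed here these counts were 5 (Herc6, Isg15, Rsad2, Rtp4, Stat2; 12.8% of all genes) and 3 (Phf11d, Samd9l, Xaf1; 13.8%). With 1 mouse left out the members' median was −0.15 without DEP 11, 0.02 without DEP 13, 0.03 without PBS 2 and −0.13 without PBS 3.

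The members with the most negative log2 fold changes did not pass. Rsad2 had 16.5 CPM in DEP 11 and 7.57 in DEP 13, against 24.8 in PBS 2 and 18.7 in PBS 3. Ifit3 had 22.7, 7.80, 32.9 and 17.8 CPM, and Rtp4, a chaperone of receptors, had 43.0, 30.3, 56.3 and 43.5 CPM. DEP 13 was the lowest and PBS 2 the highest mouse in all 3, and DEP 11 lay above PBS 3 in Ifit3. The log2 fold changes of DEP over PBS were −0.80 ± 0.30 for Rsad2, −0.67 ± 0.42 for Ifit3, −0.43 ± 0.19 for Rtp4, −0.42 ± 0.18 for Isg15 and −0.29 ± 0.19 for Ifi27l2a, each at an adjusted p of 0.997. Only for Rsad2 did a setting change this: with no gene filter its adjusted p was 0.0486 (−0.84 ± 0.23).

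The members with the most positive log2 fold changes did not pass either. Xaf1, a pro-apoptotic protein, had 34.8 and 34.7 CPM in the DEP mice, against 26.1 and 28.0 CPM in the PBS mice, with both DEP mice above both PBS mice. Phf11d had 34.7, 32.6, 32.1 and 26.8 CPM. Samd9l had 12.7, 13.5, 11.3 and 12.3 CPM and Slfn5 20.1, 17.0, 19.4 and 14.9 CPM, and the groups overlapped in Slfn5. Their log2 fold changes were 0.36 ± 0.17 for Xaf1, 0.22 ± 0.15 for Ifi205, 0.20 ± 0.16 for Phf11d, 0.15 ± 0.21 for Samd9l and 0.13 ± 0.19 for Slfn5, again at an adjusted p of 0.997.

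Plasma cell content and depth also differed between the mice. DEP 13 and PBS 3, in which 41 of 45 members and 66.3% of the genes tested between the classes were lowest, had the highest plasma cell sums (42224 and 41329 CPM, above), and PBS 2, highest in 31 members, had the lowest sum and the deepest barcodes. The part of these values in the result was not tested. Without barcodes of other cell types, 0 of 36 members passed as well, and their median log2 fold change stayed at −0.07.

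Within the classes no member passed either. In Ly6c2-high barcodes 0 of 38 members passed (0% of 5773 genes), with 2 members and 168 genes at an unadjusted p under 0.05, and the members' median was 0.00. After TMM scaling both DEP mice lay below both PBS mice in 6 members (16.5% of all genes) and above them in 2 (13%). In plain CPM these were 2 (Dtx3l, Herc6; 13% of all genes) and 3 (Samd9l, Slfn5, Xaf1; 14.8%), shares of the members below those of all genes. Herc6 had 7.5 and 5.39 CPM in the DEP mice, against 19.95 and 16.0 CPM in the PBS mice (−1.42 ± 0.45, adjusted p = 0.9996). Slfn5 had the next largest value (0.84 ± 0.30, adjusted p = 0.9996).

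In C1qa-high barcodes 0 of 34 members passed, against 0.0279% of 7164 genes (0.014% higher and 0.014% lower, 1 gene each). At an unadjusted p under 0.05 were 5 members and 268 genes, and the members' median was −0.09. After TMM scaling both DEP mice lay below both PBS mice in 11 members (18.3% of all genes) and above them in 3 (12.3%), and in plain CPM in 9 (15.2% of all genes) and 3 (14.6%). Ifitm3 was among those below on both scales, with 542 and 543 CPM in the DEP mice, against 828 and 663 CPM in the PBS mice (−0.44 ± 0.17, adjusted p = 0.9997). With DEP 11 left out, Ifit3 had a log2 fold change of −1.90 ± 0.44 in this class. That fit leaves DEP 13 as the lone DEP mouse and assumes that it varies like the PBS mice.

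**Figure D5:**
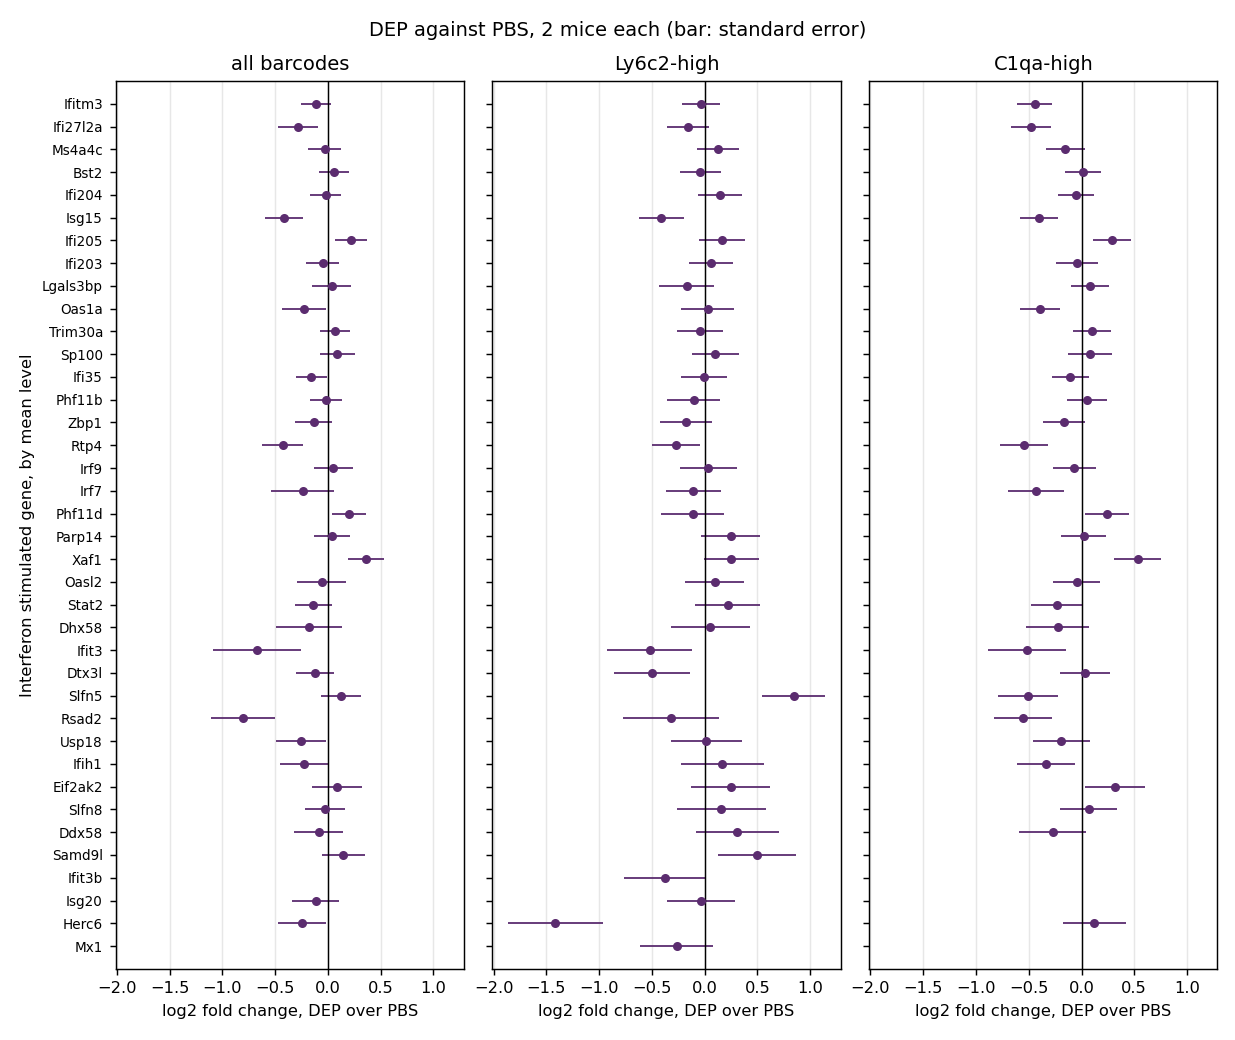
Log2 fold change of each tested member in DEP over PBS mice (2 mice each) over all barcodes and in each class, with the standard error as a bar. Values lie on both sides of 0 in every panel, no member passed the threshold, and Herc6 in Ly6c2-high barcodes is farthest from 0 (−1.42, on few UMIs).

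An interaction term tested whether exposure acted differently in each class. None of the 38 members passed, against 0.203% of 6887 genes (0.0436% higher and 0.16% lower, 14 genes in all), and 5 members and 402 genes had an unadjusted p under 0.05. DESeq2 called 0 members and 0 genes. Slfn5 had the smallest adjusted p (1.33 ± 0.33, adjusted p = 0.147). In Ly6c2-high barcodes it stood at 52.5 and 50.3 CPM in the DEP mice, against 35.1 and 21.8 CPM in the PBS mice, and in C1qa-high barcodes at 8.94 and 7.81 against 13.3 and 10.9 CPM, so the mice separated in opposite directions. Ifitm3 came next (0.39 ± 0.10, adjusted p = 0.208) and stood at 0.57 ± 0.11 with PBS 3 left out. That fit leaves a lone PBS mouse and assumes that it varies like the DEP mice.

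Of the pathway genes, 0 of 33 passed over all barcodes, 0 of 32 in Ly6c2-high and 0 of 34 in C1qa-high barcodes. Without a gene filter Cxcl9 passed over all barcodes (0.96 ± 0.20, adjusted p = 0.000367). In C1qa-high barcodes without that filter Cxcl9 passed as higher (0.997 ± 0.217, adjusted p = 0.00243) and Socs1 as lower (−2.36 ± 0.63, adjusted p = 0.0398), where 78 of 15630 genes passed. With 1 mouse left in a group, Cxcl9 stood at 1.52 ± 0.27 over all barcodes without DEP 13. Cxcl10 stood at −0.74 ± 0.16 and Socs3 at −0.93 ± 0.17 without PBS 3. Ifnar1, Ifnar2, Jak1 and Tyk2 had an adjusted p of 0.997. The interferon-induced chemokines went apart, with −0.61 ± 0.17 for Cxcl10 and 0.99 ± 0.41 for Cxcl9, neither past the threshold with the gene filter and all mice (adjusted p = 0.997).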

How the data were processed

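The authors aligned 3′ reads of 4 libraries with Cell Ranger, which runs STAR 2.6.1a, to mm10 and deposited 1 table of raw UMI counts per gene and barcode. Barcodes down to 101 UMIs are in it, so no cell filter of the study had been applied. The authors merged the libraries without downsampling. Columns were assigned to mice through their labels, and 0 columns were left unassigned. Symbols came from GENCODE M21 (28416 of 28692 genes).

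Barcodes of at least 1000 UMIs were summed per mouse, and per mouse and class. Genes seen in 5% or more of barcodes and over 1 CPM in at least 2 sums were tested with edgeR 4.0.16 (quasi-likelihood test, TMM scaling, Benjamini-Hochberg adjustment over all tested genes, threshold 0.05) in R 4.3.3. The comparison of classes and the interaction kept the mouse as a block, since both classes come from the same animals. DESeq2 1.42.0 was an alternative. Each DEP comparison has 2 mice per group and 2 residual degrees of freedom. The fits were also run on simulated counts that gave every gene the same spread beyond counting error, so that run does not measure power in these data. The study's own cell limits left 4623 barcodes of this table, more than the number of cells the study states, and the gap was not resolved. Doublets were not called. The study's methods state that its simulation marked none, in that smaller set of cells. Barcodes with at least 3 UMIs of T cell, B cell or epithelial genes, or at least 5% of UMIs from plasma cell genes, were called other cell types.

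Total UMIs per mouse limit precision most for the 9 members seen in under 5% of all these barcodes. UMI counts of near-identical genes may be split. The members, the core and the pathway list were chosen with earlier results of these data known. 1 gene of the pathway list is not reported here and is left out of its counts. Values in every mouse are given for the 12 members of highest level, the 5 per direction with the largest DEP change, and, of those past the threshold between the classes, the 8 with the largest increase and the 1 that fell. Genes named in the description of interferon-rich barcodes, and Herc6 and Ifitm3 within classes, were picked after their values were seen. Promoter windows, 250 bases before to 50 after a start, came from RefSeq (GRCm38.p6).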

Additional observations from a re-analysis of the deposited data

How the results depend on the processing

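For DEP against PBS over all barcodes, 0 members passed in all settings but one: without a gene filter 1 did (Rsad2, −0.84, adjusted p = 0.0486). In C1qa-high barcodes leaving out a mouse gave 0 to 1 members (Ifit3, −1.90, without DEP 11), and in the interaction 0 to 1 (Ifitm3, 0.57, without PBS 3). Over all genes, DEP against PBS called 4 with DESeq2, 119 without a gene filter and 7 to 35 with a mouse left out. In Ly6c2-high barcodes it called 47 without a gene filter, 3 with a fixed class limit of 10 UMIs per 10000 and 0 to 4 with a mouse left out. In C1qa-high barcodes it called 1 with DESeq2, 78 without a gene filter, 4 with classes set after thinning, 0 with the fixed limit and 0 to 32 with a mouse left out. The interaction called 9 genes with RLE scaling, 0 with DESeq2, 34 without a gene filter, 7 under the study's cell limits, 6 after thinning, 9 with the fixed limit and 1 to 51 with a mouse left out. Between the classes the fixed limit called 1123 genes and 29 of 36 members. Bst2 reversed there (0.37), and Ifih1 reversed after thinning (−0.0125). The cause was not tested. Of the other named genes' values between the classes, 351 kept their side of the threshold, 17 lost it and 6 gained it. The DEP minus PBS share of interferon-rich barcodes was −5.40 points without thinning and −1.25 to 0.0763 points with a mouse left out.

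No paired analysis was possible because DEP and PBS mice share no replicate number. The class comparison was paired by mouse, and with no replicate block it called 33 of 38 members and 1855 genes, against 34 and 2664. A leave-one-out fit takes a lone mouse to vary like the others, and rare members rest on few UMIs (29 for Ifi44).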
